A study of Mus musculus with 9 samples.

Results

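The genes described here are 10 members of the Bcl2 family, taken by symbol from the 55487 genes of each library, each symbol matching 1 gene identifier. They are the survival genes Bcl2, Bcl2l1 (Bcl-xL) and Mcl1, the effectors Bax and Bak1, and the BH3-only genes Bcl2l11 (Bim), Bad, Bid, Bbc3 (Puma) and Pmaip1 (Noxa). All 10 passed the filter on low counts. Polyadenylated RNA came from naive CD4+ T cells of wild-type C57BL6/J lymph nodes in 9 libraries, 3 for each of 3 groups. The groups were cells taken fresh with no treatment (fresh), cells kept 20 h in culture with no treatment (cultured), and cells kept 20 h in culture with recombinant IL-1b, an inflammatory cytokine, at 10 ng/mL (IL-1b). The labels do not name the age or sex of the mice, or whether replicates were separate animals, so p-values may measure technical spread alone.

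Proteins of this family decide whether the mitochondrial outer membrane stays closed. Bax and Bak1 assemble into pores that release cytochrome c and start the caspase cascade, the survival proteins hold them in check, and BH3-only proteins bind the survival proteins or engage the effectors. A naive T cell depends on Bcl2, which interleukin-7 signalling maintains, and on Mcl1, a protein of fast turnover, while Bim is the BH3-only protein best known for the death of T cells deprived of cytokine.

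What joins these genes is the BH3 stretch, a short helix through which killers dock into a groove of the survival proteins. The coding bases of this stretch are shown so that the members can be compared. In the translated GENCODE M21 transcripts (GRCm38, the assembly called mm10), the pattern searched was a leucine, then 4 residues of which the last was glycine, alanine or serine, then an aspartate followed by aspartate, glutamate or glycine. For each of 9 members, the transcript used was the one with the longest coding sequence among those with a match, and each held exactly 1 match. The 12 codons around it lay within 1 coding exon in each case. Capitals mark the codons of the leucine and the aspartate, and the sequence of Pmaip1 is not shown.
Bcl2 (chr1:106712578-106712613, minus strand, exon 1): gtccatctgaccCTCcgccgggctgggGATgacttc
Bcl2l1 (chr2:152829700-152829735, minus strand, exon 2): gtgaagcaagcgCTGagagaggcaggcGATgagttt
Mcl1 (chr3:95659424-95659459, plus strand, exon 1): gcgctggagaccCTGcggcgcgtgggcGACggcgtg
Bax (chr7:45466000-45466035, minus strand, exon 3): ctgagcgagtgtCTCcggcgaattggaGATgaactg
Bak1 (chr17:27022534-27022569, minus strand, exon 4): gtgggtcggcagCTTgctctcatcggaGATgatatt
Bcl2l11 (chr2:128147138-128147173, plus strand, exon 3): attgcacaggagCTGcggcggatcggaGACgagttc
Bad (chr19:6950780-6950815, plus strand, exon 3): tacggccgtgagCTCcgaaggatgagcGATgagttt
Bid (chr6:120897292-120897327, minus strand, exon 4): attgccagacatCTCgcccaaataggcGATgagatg
Bbc3 (chr7:16313761-16313796, plus strand, exon 3): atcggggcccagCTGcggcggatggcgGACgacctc

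Libraries held 13518814 to 23056686 counts. The T cell genes Cd3e and Cd4 were high in fresh cells, at 529 ± 9.64 and 561 ± 40.0 TPM (a level adjusted for transcript length and depth; mean ± SD, n = 3). The summed TPM of 10 B cell markers was 601 to 696 in fresh, 188 to 200 in cultured and 167 to 184 in IL-1b libraries, that of 7 neutrophil markers 14.7 to 41.5, 0.28 to 0.81 and 0 to 2.3, and that of 2 CD8 markers 23.8 to 25.6, 41.2 to 50.1 and 37.9 to 42.4. Camp and Retnlg were at 0 counts in both groups kept in culture. The sum of 6 myeloid markers was higher in culture, at 66 to 79.4, 82.1 to 87.6 and 89.5 to 101. Of these 6 genes, however, 1 was higher and 4 lower in cultured than in fresh cells (edgeR adjusted p under 0.05). Of all genes 29.4% were higher and 28.9% lower. The sum of 5 NK markers overlapped between groups, at 7.01 to 9.06, 5.71 to 8.76 and 3.66 to 7.66. The median effective length behind a count fell from 2359 to 2380 bases in fresh libraries to 2100 to 2136 in cultured and 1781 to 1794 in IL-1b libraries. The part of these shifts in the results below was not tested, except that results with the trend on length and GC content removed are given. In bulk RNA, fewer cells of a type and less RNA per cell cannot be told apart.

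Mcl1 led the family in every library, and Pmaip1 came last. In fresh cells Mcl1 stood at 270 ± 5.71 TPM, Bax at 122 ± 9.49 and Bcl2 at 53.9 ± 0.606, and the ranges of these 3 genes did not overlap. They were followed by Bcl2l11 at 29.4 and Bak1 at 26.5, whose libraries overlapped, and by Bad at 14.2, Bbc3 at 12.7, Bcl2l1 at 9.91 and Bid at 7.67 TPM, of which each overlapped its neighbour in this order. After culture Bcl2 came second, at 190 TPM, ahead of Bax at 163 with no overlap. With IL-1b, Bax at 145 and Bcl2 at 134 TPM overlapped. The 10 genes together took 547 ± 10.8 TPM in fresh, 902 ± 3.58 in cultured and 757 ± 18.3 in IL-1b libraries, and Mcl1 alone was 49.3, 47.9 and 50.3% of these sums. The share of Bcl2 in the sum was 9.85 ± 0.135% in fresh, 21.1 ± 0.128% in cultured and 17.8 ± 0.390% in IL-1b libraries, and that of Bak1 4.84, 1.55 and 1.53%.

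**Figure D1:**
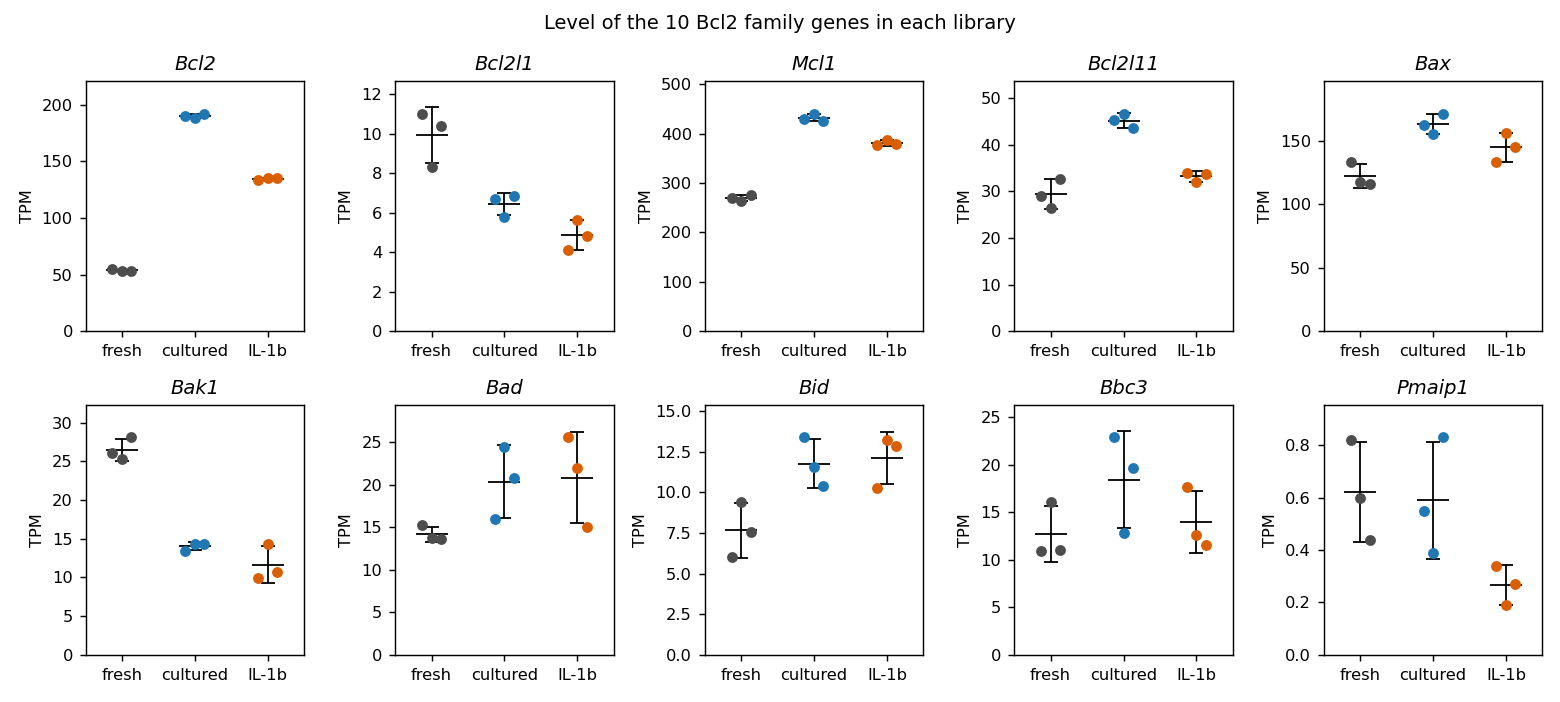
TPM of each member (vertical axis, from 0) in each library (points), with the group mean (bar) and SD (whiskers, n = 3), for fresh, cultured and IL-1b cells. The 3 cultured libraries of Bcl2 sit between 188.61 and 192.21 TPM, far above the fresh libraries at 53.54 to 54.6, and the IL-1b libraries lie between them.

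Cells kept 20 h in culture were first set against fresh cells. Most of the family went up, survival and death genes alike, with Bcl2 the most: Bcl2 rose 4.14-fold, Bcl2l11 1.94-fold, Mcl1 1.88-fold and Bax 1.54-fold in counts scaled by TMM. Bak1 and Bcl2l1 went the other way. Of the 10 members 7 rose and 2 fell, where 58.2% of all 13043 genes tested were called, 29.4% upward. The tests were edgeR's two-sided quasi-likelihood F test with Benjamini-Hochberg adjustment over all genes and a threshold of 0.05, and a call below means that an adjusted p was under it. The median log2 fold change was 0.66 over the members and 0.00 over all genes tested. With the length and GC trend removed 8 members were called, against 54.4% of all genes. In TPM 8 members did not overlap between the groups, 6 higher and 2 lower, where 60.4% of all genes did not, 17.3% higher and 43.1% lower.

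Among the survival genes, Bcl2, whose product guards the outer membrane of the resting lymphocyte, was at 54.6, 53.56 and 53.54 TPM in the 3 fresh libraries and at 189.78, 188.61 and 192.21 in the cultured ones. The groups were far apart and each was tight. The difference was 2.05 ± 0.03 (log2 fold change ± SE, adjusted p = 1e-23), and 225 of the 13043 genes tested had a larger one. Mcl1, whose protein is degraded quickly, was at 269.55, 264.38 and 275.79 TPM in fresh and at 429.44, 440.17 and 426.15 in cultured libraries, again without overlap (0.91 ± 0.03, adjusted p = 3.56e-18). Bcl2l1, the survival gene that T cells raise on activation, was at 11.01, 8.31 and 10.41 TPM in fresh and at 6.67, 5.78 and 6.86 in cultured libraries. It fell by 0.40 on the log2 scale (SE 0.14, adjusted p = 0.0154). That call rested on 144 to 338 counts per library and was lost without fresh replicate 1 (adjusted p = 0.0885), cultured replicate 1 (0.0538) or cultured replicate 2 (0.0574), and with the length and GC trend removed (-0.17, adjusted p = 0.289).

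The 2 effectors moved apart. Bax was at 133.2, 117.43 and 116.16 TPM in fresh and at 162.44, 155.21 and 171.28 in cultured libraries, and every cultured library was above every fresh one (0.62 ± 0.07, adjusted p = 6.6e-08). Bak1 was at 26.06, 25.32 and 28.09 TPM in fresh and at 13.42, 14.29 and 14.32 in cultured libraries. The Bak1 groups did not overlap either, in the other direction (-0.69 ± 0.11, adjusted p = 6.64e-06), and the difference was -0.37 with the length and GC trend removed (adjusted p = 0.00364). The Bak1 locus (chr17:27019810-27029009, minus strand) overlaps Ggnbp1 on the other strand, and whether the counting used strand is not given in the sources used here.

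Of the 5 BH3-only genes 4 rose. Bcl2l11 was at 29.06, 26.42 and 32.69 TPM in fresh and at 45.25, 46.65 and 43.57 in cultured libraries, without overlap (0.96 ± 0.05, adjusted p = 5.44e-14). Bid, whose product is cleaved by caspase-8 to link death receptors to mitochondria, went from 6.02 to 9.42 TPM in fresh to 10.39 to 13.39 in cultured libraries (0.75 ± 0.15, adjusted p = 0.000186). Bad, which survival kinases silence by phosphorylation, went from 13.58 to 15.22 to 15.93 to 24.42 TPM (0.71 ± 0.15, adjusted p = 0.000313). Bad (chr19:6941861-6951899) overlaps Gpr137 on the other strand. Bid (chr6:120891930-120916853) overlaps Bcl2l13 and Gm17812 on the other strand and Gm44260 on its own. Bcl2 and Bax, described above, carry this limit too. Bcl2 overlaps D630008O14Rik on the other strand and Gm37053 and Mir3473f on its own, and Bax overlaps Gm45808 on its own. The part of these neighbours in the values was not tested. Bbc3, a p53 target, rose by 0.44 ± 0.13 (adjusted p = 0.00753), but its TPM values overlapped, at 10.94 to 16.11 in fresh and 12.85 to 22.88 in cultured libraries, and the call was lost without cultured replicate 1 (adjusted p = 0.0569). With log2(TPM + 1) values in limma the Bad and Bbc3 calls were lost as well, at differences of 0.48 and 0.49 (adjusted p = 0.0664 and 0.107). With the length and GC trend removed both were called, Bbc3 at 0.81 (adjusted p = 4.51e-05) and Bad at 0.80 (adjusted p = 8.8e-05). Pmaip1, whose product binds Mcl1, had 9 to 28 counts per fresh and 10 to 12 per cultured library, and its difference was not called (-0.19, 95% interval -1.37 to 0.99, adjusted p = 0.799).

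**Figure D2:**
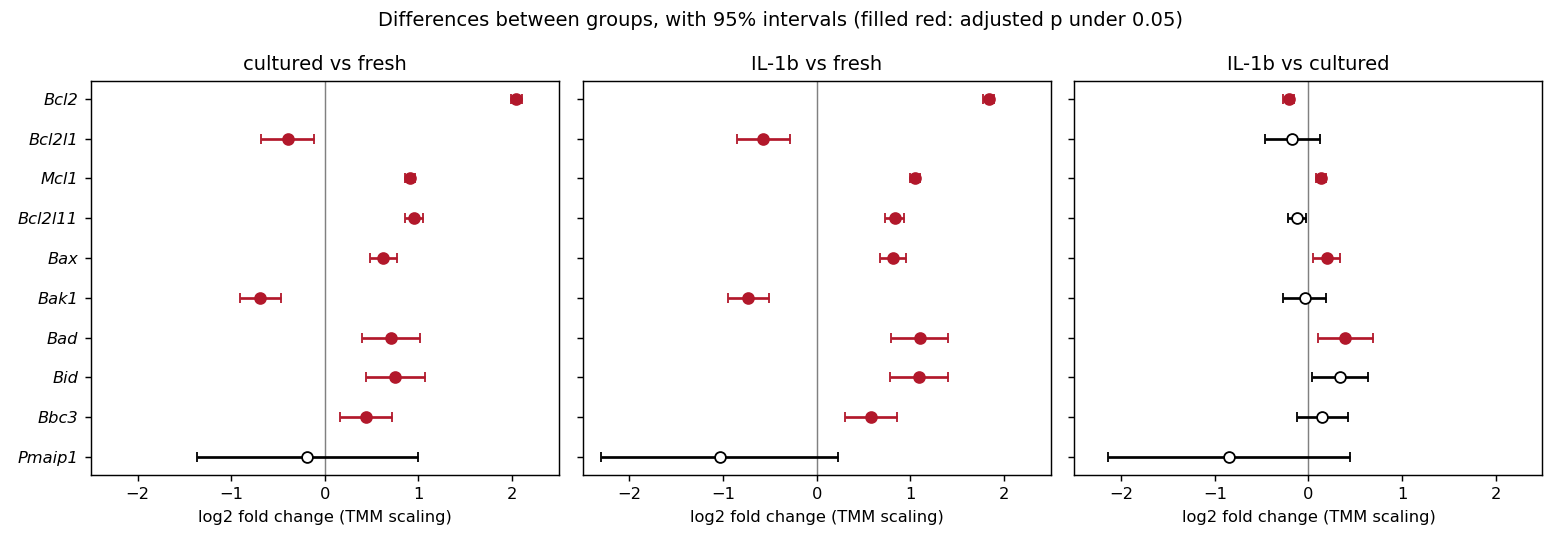
Log2 fold change of each member (horizontal axis) with its 95% interval, for cultured against fresh, IL-1b against fresh and IL-1b against cultured cells, from the fit of TMM-scaled counts over 9 libraries; filled red points have an adjusted p under 0.05. Bcl2 lies near 2.05 and 1.84 in the comparisons with fresh cells and at -0.21 between the 2 cultures, where no member reaches 0.5 in size other than Pmaip1, whose interval is the widest.

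IL-1b cells were then set against cells cultured for as long without it. Differences within the family were small: Bcl2 fell 1.16-fold, and Mcl1, Bax and Bad rose 1.10-, 1.14- and 1.32-fold in TMM-scaled counts. Those 3 genes up and 1 down were 4 of 10 members, where 28.9% of all genes were called, 15.6% upward and 13.3% downward. The median log2 fold change was 0.05 over the members and -0.01 over all genes. Of all genes 2037 were called higher and 1731 lower, or 1191 and 3273 with scaling by library size alone, 289 and 4452 on log2(TPM + 1) and 1925 and 598 with the length and GC trend removed. The median of all genes was at -0.12 with library size alone and at -0.28 on log2(TPM + 0.5), so directions of small differences depend on the scale.

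Bcl2 was the member that kept its direction in all 23 alternative settings with a call in 22 of them. Its TPM was 133.29, 134.93 and 135.15 in the IL-1b libraries, all below the lowest cultured library at 188.61. The difference was -0.21 ± 0.03 in TMM-scaled counts (adjusted p = 3.39e-06), -0.50 between mean TPM values and -0.09 with the length and GC trend removed (adjusted p = 0.0479). Mcl1 was at 377.43, 387.09 and 377.79 TPM, also all below the cultured libraries, yet it rose by 0.14 ± 0.03 in TMM-scaled counts (adjusted p = 0.000274) and by 0.33 with the trend removed (adjusted p = 9e-10). The direction of Mcl1 thus rests on the scale: on log2(TPM + 1) it was -0.18 (adjusted p = 0.00168), and with library size alone it was 0.02 (adjusted p = 0.545).

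The other calls were less firm. Bax was at 133.6, 156.2 and 144.68 TPM in IL-1b libraries, overlapping the cultured ones, with a difference of 0.19 ± 0.07 in TMM-scaled counts (adjusted p = 0.0351) and -0.17 on log2(TPM + 1) (adjusted p = 0.0916). The Bax call was lost without cultured replicate 1 (adjusted p = 0.0909), cultured replicate 2 (0.135), IL-1b replicate 2 (0.194) or IL-1b replicate 3 (0.0677). Bad was at 25.58, 21.95 and 15.03 TPM, overlapping likewise (0.40 ± 0.14, adjusted p = 0.0414), and its call was lost without cultured replicate 1 (0.214), IL-1b replicate 1 (0.180) or IL-1b replicate 2 (0.115). Both calls were lost with the length and GC trend removed, where Bax was at 0.14 (adjusted p = 0.0886) and Bad, nearly as large as before, at 0.39 (adjusted p = 0.0669). Only 2 members were called once cultured replicate 1 was left out, and likewise 2 once IL-1b replicate 2 was. In these fits 3027 of 13446 and 3465 of 13489 genes were called. With the trend removed 2 were called, Mcl1 and Bcl2, against 19.3% of all genes.

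Bcl2l11 lay just outside the threshold. It was at 33.95, 31.94 and 33.7 TPM with IL-1b, below every cultured library, and differed by -0.12 in TMM-scaled counts (95% interval -0.22 to -0.03, adjusted p = 0.0525). It was called under 9 of the 23 alternative settings, among them DESeq2 (adjusted p = 0.0160), and was at 0.02 with the trend removed (adjusted p = 0.795). Bid was not called at 0.34 (interval 0.04 to 0.64, adjusted p = 0.0854), though it was without fresh replicate 2 (adjusted p = 0.0490). Bcl2l1 was at -0.17 (interval -0.46 to 0.12), Bak1 at -0.04 (-0.27 to 0.19) and Bbc3 at 0.15 (-0.13 to 0.42). Pmaip1 had 3 to 8 counts per IL-1b library and a difference of -0.85 (interval -2.15 to 0.44), so that at this depth a change of 2-fold in it was not detectable. In TPM values 5 members, Bcl2, Bcl2l1, Mcl1, Bcl2l11 and Pmaip1, were lower with IL-1b without overlap and none was higher, where 48.8% of all genes did not overlap, 45% lower and 3.76% higher.

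**Figure D3:**
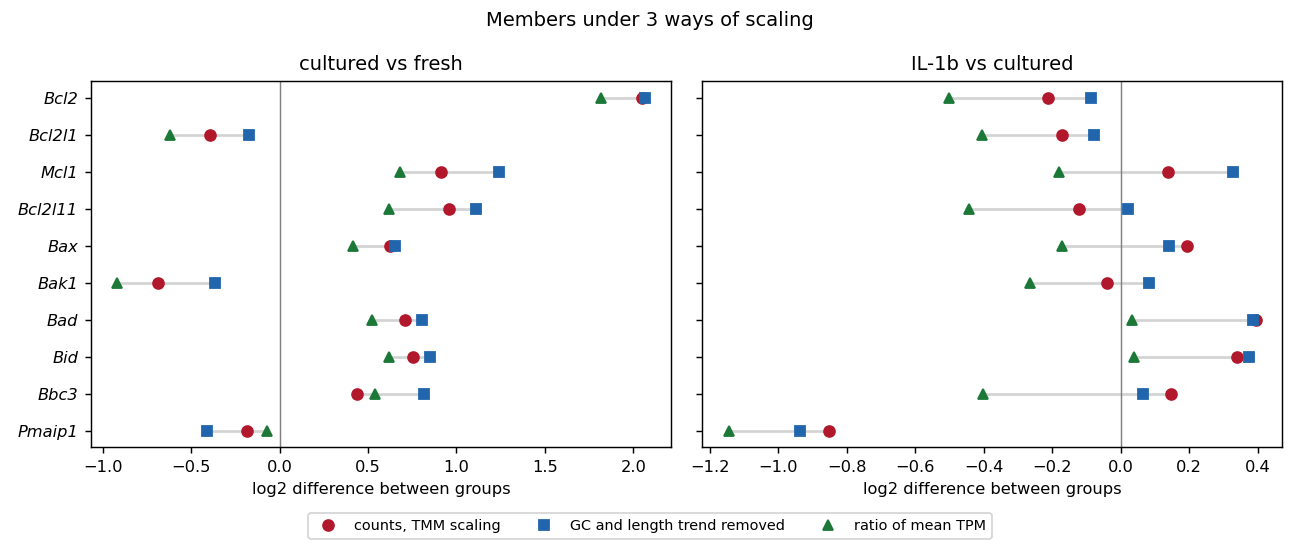
Difference between groups on the log2 scale (horizontal axis) for each member from TMM-scaled counts (circles), with each library's length and GC trend removed (squares), and as the ratio of mean TPM (triangles). Between cultured and fresh cells the 3 values of each member share a sign, whereas between IL-1b and cultured cells those of Mcl1, Bcl2l11, Bax, Bak1 and Bbc3 lie on both sides of 0.

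Set against fresh cells, IL-1b cells differed in the same 9 members as cultured cells did, 7 of them higher and 2 lower, where 65.5% of all genes were called and 32.9% upward. This comparison shares its libraries with the other 2 and is no separate evidence. Bcl2 differed by 1.84 ± 0.03 (adjusted p = 5.83e-23), Mcl1 by 1.05 ± 0.03, Bcl2l11 by 0.83 ± 0.05, Bax by 0.82 ± 0.07 and Bbc3 by 0.58 ± 0.13. Bad and Bid differed by 1.10 ± 0.15 and 1.09 ± 0.15, or 2.15- and 2.13-fold, and by 1.19 and 1.23 with the length and GC trend removed. Ratios of mean TPM were smaller, at 1.47 for Bad, 1.58 for Bid and 1.18 for Bax. The Bad libraries overlapped in TPM, at 13.58 to 15.22 in fresh and 15.03 to 25.58 in IL-1b cells. Bcl2l1 and Bak1 differed by -0.57 ± 0.14 and -0.73 ± 0.11, and the Bcl2l1 call was lost with the length and GC trend removed (-0.25, adjusted p = 0.116). Pmaip1 was not called (-1.04, 95% interval -2.30 to 0.23, adjusted p = 0.142). On log2(TPM + 1) the Bcl2l11 and Bbc3 calls were lost (0.17 and 0.13, adjusted p = 0.0819 and 0.658). In TPM values 4 members were higher and 3 lower without overlap, where 69% of all genes did not overlap, 12.6% higher and 56.4% lower. With the trend removed 8 members were called, against 60.9% of all genes.

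A ratio of 2 members within a library does not depend on a scaling factor common to all genes of that library. Removal of the length and GC trend acts on each gene separately and can change such ratios. It was not applied to those given here. The ratio of Bcl2 to Bcl2l11 was 1.88, 2.03 and 1.64 in the fresh, 4.19, 4.04 and 4.41 in the cultured and 3.93, 4.22 and 4.01 in the IL-1b libraries. Fresh cells thus stood apart below both cultures, and the 2 cultures overlapped. The ratio of Mcl1 to Bcl2 was 4.94 to 5.15 in fresh, 2.22 to 2.33 in cultured and 2.8 to 2.87 in IL-1b libraries, so each group lay apart from the other two. Bax to Bak1 was 4.14 to 5.11 in fresh, 10.9 to 12.1 in cultured and 10.9 to 13.6 in IL-1b libraries. Bcl2 to Bcl2l1 was 4.96 to 6.45, 28 to 32.6 and 24 to 32.4. In both of these ratios fresh cells were apart and the cultures overlapped. With each gene's effective length held at its mean over libraries, however, Bax to Bak1 was 10.5 to 11.9 in cultured and 12.6 to 14.6 in IL-1b libraries, without overlap. The summed TPM of the 3 survival genes over that of the 5 BH3-only genes was 4.92 to 5.4 in fresh, 6.39 to 6.62 in cultured and 5.86 to 7.05 in IL-1b libraries. The ratio of Bcl2 to Bax also set all 3 groups apart, at 0.41 to 0.461 in fresh, 1.12 to 1.22 in cultured and 0.864 to 0.998 in IL-1b libraries, and Mcl1 to Bax (2.02 to 2.37, 2.49 to 2.84 and 2.48 to 2.83) overlapped between the cultures. These ratios were chosen with the values known and are descriptions.

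**Figure D4:**
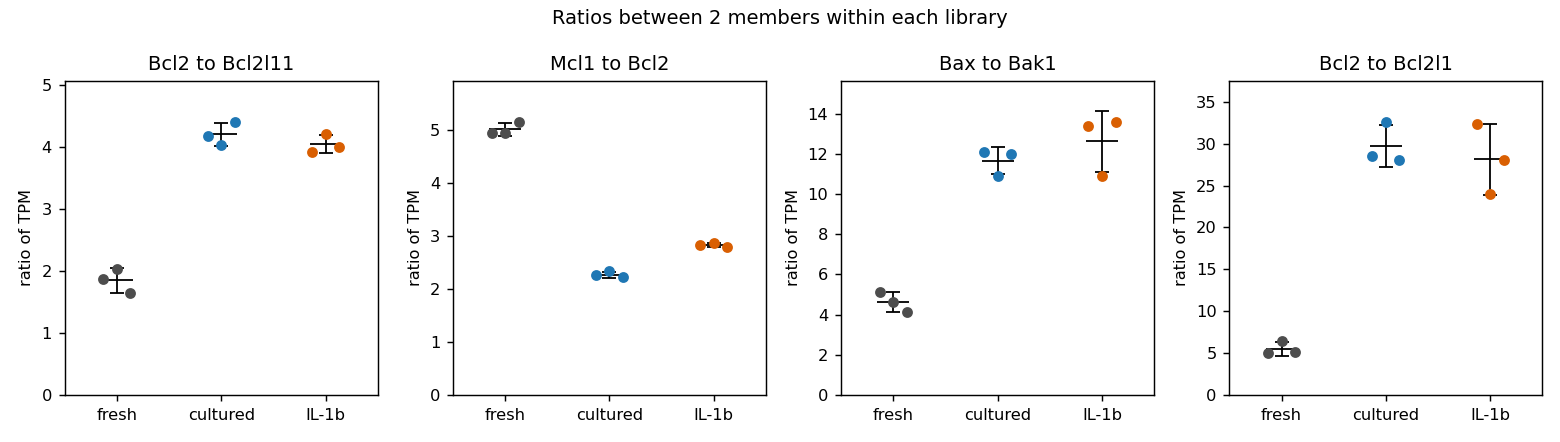
Ratio of TPM between 2 members (vertical axis, from 0) in each library (points), with the group mean (bar) and SD (whiskers, n = 3). The ratio of Mcl1 to Bcl2 separates all 3 groups, at 5.01, 2.27 and 2.83 on average, and in the other 3 panels the cultured and IL-1b libraries overlap.

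Over the 9 libraries the genes whose log2 CPM followed Bcl2 most closely were Ecm1, Mtmr3 and Sfxn3 (Pearson r = 0.999, 0.999 and 0.998), and Ecm1 went from 48.1 TPM in fresh to 1158 in cultured and 706 in IL-1b cells. Bcl2 was itself among the 3 nearest to Bcl2l11 (r = 0.997), with Plpp5 (0.998) and Rsrp1 (0.996). Nearest to Mcl1 were Wdr12, Tardbp and Ms4a4b (0.999, 0.999 and 0.998), and to Bax Tgs1, Polr2i and Rnaset2a (0.993 each). All points share their libraries and fall into 3 groups, so these r values carry no p.

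Of 15 further family members 7 passed the filter, and between cultured and fresh cells 2 rose and 2 fell, where 58.2% of all genes were called. Bnip3l, a mitophagy receptor, rose by 0.81 ± 0.04 (145 to 218 TPM, adjusted p = 1.06e-14) and the related Bnip3 by 0.59. Bcl2l12 fell by 0.57, and Bcl2a1b, a survival gene that NF-kB induces and whose near-identical copies may share reads, by 0.60 (adjusted p = 0.0406). Between IL-1b and cultured cells Bnip3l rose by 0.20 (adjusted p = 0.000133), a call lost with the trend removed (adjusted p = 0.107) and opposite in sign to its TPM means of 218 and 211, and Bcl2l12 fell by 0.36 (adjusted p = 0.0429). Bcl2a1a and Bcl2l10 had 0 counts in every library, and Bok and Hrk had 0 in 2 of the 3 groups each.

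Downstream of the pore, 7 of 14 caspase and apoptosome genes rose and 1 fell between cultured and fresh cells (median log2 fold change 0.23). That share of called genes was near the 58.2% of all genes, of which 29.4% were called higher. Casp8, the initiator of the death receptor route, rose from 137 ± 6.23 to 198 ± 11.1 TPM (0.74 ± 0.04, adjusted p = 9.82e-13). Diablo, which relieves caspases from their inhibitors, rose by 0.71 and the cytochrome c gene Cycs by 0.67. The apoptosome scaffold gene Apaf1, named after its values were seen, was not called (-0.14, adjusted p = 0.129). With IL-1b against cultured cells 3 of the 14 rose and none fell at the same threshold in edgeR, namely Cycs (0.42), Casp6 (0.41) and Endog (0.69), where 15.6% of all genes were called higher. Among 7 genes of the outer membrane, 7 rose between cultured and fresh cells (29.4% of all genes did), with the channel gene Vdac3 at 0.88 ± 0.06, Mtch2, which receives the cleaved form of Bid, at 0.78 ± 0.07, Vdac2, which holds Bak1 at the membrane, at 0.48 ± 0.04, and the import receptor gene Tomm20 at 0.34. With IL-1b against cultured cells 6 of them rose and none fell, or 4 with the trend removed, and Vdac3 was at 0.36, Mtch2 at 0.35, Tomm70a at 0.28 and Vdac2 at 0.19, the last lost with the trend removed (adjusted p = 0.126). Among the 6, only Vdac3 was also higher in mean TPM (89.7 to 91.8). The mean went from 61.1 to 57.8 for Mtch2, 27.0 to 26.1 for Tomm70a, 137 to 122 for Vdac2, 103 to 102 for Tomm20 and 95.8 to 87.9 for Tomm22.

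Among the genes of caspase inhibitors, Birc6, a giant ubiquitin ligase that restrains caspases, fell in both steps, from 219 ± 7.93 TPM in fresh to 157 ± 3.98 in cultured (-0.30 ± 0.03, adjusted p = 3.39e-09) and 101 ± 6.02 in IL-1b cells (-0.25 ± 0.03, adjusted p = 3.74e-07). Birc6 was the 1 of 5 inhibitor genes called between cultured and fresh cells, where 58.2% of all genes were called, 28.9% lower. The median of the 5 was -0.01. With IL-1b against cultured cells 1 of the 5 rose and 2 fell, where 28.9% of all genes were called. Xiap fell by 0.22, a call lost with the trend removed (adjusted p = 0.141), and Birc2 rose by 0.26, while its mean TPM was 43.4 in cultured and 40.8 in IL-1b cells. Of 9 death receptor genes 2 rose and 6 fell between cultured and fresh cells, where 29.4% of all genes were called higher and 28.9% lower. The receptor gene Fas rose from 22.6 to 40.3 TPM (1.04 ± 0.10, adjusted p = 7.52e-09) and Ripk1 by 0.45, while Cflar, the inhibitor of caspase-8, fell by 0.38 and Tnfrsf1a by 0.70. Between the 2 cultures 1 of the 9 was called, against 28.9% of all genes, namely Cflar at -0.11 (adjusted p = 0.0283, or 0.474 with the trend removed).

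Of 14 tested genes that control the members upstream, 1 rose and 11 fell between cultured and fresh cells (median -0.36), or 4 and 8 with the trend removed. Of all genes 29.4% were called higher and 28.9% lower in that comparison. Jak3, the kinase of the common gamma chain receptors, went from 131 ± 5.51 to 16.0 ± 1.78 TPM (-2.79 ± 0.06, adjusted p = 2.83e-20). Stat5a, a transcription factor through which those receptors raise Bcl2, fell by 1.02 (SE 0.06). Stat5b, named after its values were seen, was not called, at 89.4 TPM in fresh and 76.5 in cultured cells (-0.01 ± 0.04, adjusted p = 0.843). With the trend removed Stat5b was called higher (0.39, adjusted p = 2.45e-09). Foxo1, a transcription factor of the naive state, went from 91.0 to 27.4 TPM and Nfkb1 fell by 1.02. The interleukin-7 receptor gene Il7r, named after its values were seen, was at 312 TPM in fresh and 231 in cultured cells (-0.16 ± 0.03, adjusted p = 0.000115). With IL-1b against cultured cells 3 of the 14 rose and 7 fell, where 15.6% of all genes were called higher and 13.3% lower, or 4 and 2 with the trend removed. Among them were Foxo1 at -0.29, Myc at -0.27, Nfkb1 at -0.25 and the gamma chain gene Il2rg at 0.18 (405 and 365 TPM, opposite in sign), and the Foxo1 call was lost with the trend removed (adjusted p = 0.120). Trp73 had 0 counts in fresh and IL-1b cells.

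With IL-1b cells set against fresh cells, the same lists gave 2 of 7 further family members higher and 2 lower, 8 and 1 of 14 caspase and apoptosome genes, 7 and 0 of 7 outer membrane genes, 1 and 2 of 5 inhibitors, 2 and 5 of 9 death receptor genes, and 1 and 11 of 14 upstream genes. Of all genes 32.9% were called higher and 32.6% lower. With the length and GC trend removed, 4 upstream genes were higher and 9 lower, where 60.9% of all genes were called. Further family members were then 3 and 2, caspase and apoptosome genes 9 and 1, and the other 3 lists kept their counts. Jak1 (-0.19 and 0.27), Stat5b (-0.19 and 0.46) and Foxo3 (-0.47 and 0.32) were called lower in TMM-scaled counts and higher with the trend removed. Cycs was at 1.09 ± 0.08 (log2 fold change ± SE), Diablo at 0.89 and Casp8 at 0.81. Vdac3 was at 1.24 ± 0.06, Mtch2 at 1.13, Vdac2 at 0.67 and Tomm20 at 0.52, and all 4 means were higher in TPM too. Bnip3l and Bnip3 were at 1.02 and 0.98, and Bcl2l12 at -0.93. Bcl2l13, a mitophagy receptor of the family, was at -0.15 (edgeR adjusted p = 0.0346) but at 0.23 with the length and GC trend removed (adjusted p = 0.00194). Birc6 was at -0.56, Xiap at -0.21 and Birc2 at 0.21, the last with a lower mean TPM (50.9 and 40.8). Fas was at 1.26 ± 0.10, Cflar at -0.48, Tnfrsf1a at -0.83 and Ripk1 at 0.50, the last with 35.8 and 34.8 TPM. Jak3 was at -3.09 ± 0.06, Foxo1 at -1.79, Nfkb1 at -1.27 and Stat5a at -1.15.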

How the data were processed

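Per the submitters' processing notes, the authors aligned reads with STAR and quantified genes with RSEM on mm10. Their versions and the strand setting of the counting are not given in sources used here. The deposited tables hold RSEM expected counts, TPM and FPKM per gene, per the file headers, with gene and effective lengths in bases. FPKM, deposited alongside, was not used. Symbols matched 55141 of 55487 identifiers (99.38%) in GENCODE M21. Expected counts were rounded, filtered with filterByExpr, scaled by TMM and tested with edgeR 4.0.16 under R 4.3.3 (9 libraries in 1 fit, group as the only term, 13043 genes, biological coefficient of variation 0.0665). The SE is the log2 fold change over the root of F. Alternatives used limma 3.58.1, DESeq2 1.42.0 and mgcv 1.9.3 (a smooth trend on GC content and log2 effective length per library, removed as an offset; GC content was known for 55141 genes, 99.38%, and set to the median elsewhere). Scripts were tested on simulated data. A floor of 3 counts equals 0.130 to 0.222 CPM per library and covers counting error only. Members and lists were chosen with earlier results of these data known. Every member is named, and from each list the up to 4 called genes of smallest adjusted p per comparison, any at 0 counts in a group, and the 3 genes nearest to 4 members, except that some listed genes are not reported here.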

Additional observations from a re-analysis of the deposited data

How the results depend on the processing

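Each result was recomputed under other scalings, filters, tools, a length offset, removal of the length and GC trend, fits of 2 groups, a replicate block and without each library in turn. The counts of members called between cultured and fresh cells (9) and between IL-1b and fresh cells (9) stayed within 1.5 times of themselves in all of these, at 7 to 9. Between IL-1b and cultured cells 4 members were called, but 2 with library size alone, 2 with the effective length offset, 2 with the trend removed, 0 at an absolute log2 fold change of at least 0.5, and 2 to 5 without single libraries. The calls among all 13043 genes moved too, from 3768 to 4464 with library size alone, 2161 with the length offset and 2523 with the trend removed. Without single libraries 3024 to 3698 genes were called. Same-numbered libraries did not deviate together (r from -0.022 to 0.019, with 1, 3 and 2 of 6 libraries closest to their own number). No pairing by number was seen, but deviations from means of 3 libraries may miss a weak shared effect. With the replicate block 2 members were called between IL-1b and cultured cells, and 1 with the block and the trend removed. Of all 13043 genes 3652 and 2424 were called in these settings. Signs changed in IL-1b against cultured cells for Mcl1 on log2(TPM + 1) (-0.18) and log2(TPM + 0.1) (-0.18). They changed for Bax on the same scales (-0.17 and -0.17) and for Bbc3 (-0.365 and -0.385), which was also at -0.0939 with the length offset. Bcl2l11 was at 0.0223 with the trend removed and at 0.0222 with the replicate block as well. Bak1 was at 0.0391 with the length offset, 0.0812 with the trend removed, 0.0792 with the replicate block as well, and -0.1252 to 0.0815 without single libraries (positive without IL-1b replicate 1). Between cultured and fresh cells Pmaip1 was at 0.1087 with the length offset and -0.4015 to 0.2092 without single libraries (positive without fresh replicate 1). The cause of these changes was not tested. Pmaip1, at 3 to 28 counts per library, is limited by depth.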

Other observations

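Of 8 genes listed for the turnover of the Mcl1 and Bim proteins, 1 rose and 3 fell between cultured and fresh cells, where 58.2% of all genes were called. Huwe1, a ubiquitin ligase that marks Mcl1 for degradation, fell from 240 ± 9.08 TPM (SD, n = 3) in fresh to 125 ± 2.34 in cultured cells (log2 fold change -0.61 ± 0.03 SE, edgeR adjusted p = 1.44e-14), and Cul5 fell by 0.21. Usp9x, which removes that mark, rose by 0.36. Dynll2, a dynein light chain that tethers the BH3-only protein Bmf, fell by 0.46. With IL-1b against cultured cells 2 rose and 1 fell, where 28.9% of all genes were called. Huwe1 fell further, to 83.5 ± 10.3 TPM (-0.35 ± 0.03, adjusted p = 3.85e-09), while Dynll1, the dynein light chain that tethers Bim, and the adaptor gene Ywhaz rose by 0.38 and 0.13, though both TPM means stood close to or below the cultured ones, at 139 against 135 and 288 against 331. Against fresh cells 3 rose and 3 fell with IL-1b, where 65.5% of all genes were called. Huwe1 was at -0.97 and Dynll2 at -0.37, the latter lost with the length and GC trend removed (adjusted p = 0.106). Usp9x was at 0.34 with a lower mean TPM (55.4 and 48.9), and Dynll1 was at 0.24 in TMM-scaled counts and at -0.22 with the trend removed.

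RSEM's effective length of a gene follows its estimated mix of transcripts, but not that alone. Mcl1 kept a length of 3418 bases in every library, while its effective length ranged from 3178.26 to 3205.28. The part of the mix in the differences below was not tested. For Bcl2, with 2 transcripts in the tables, the effective length was 6423.06 to 6431.48 bases in cultured and 6280.99 to 6329.84 in IL-1b libraries, without overlap, and 6277.9 to 6506.41 in fresh ones. For Bbc3, with 4 transcripts, it ranged from 857.38 to 1475.4 bases over the 9 libraries and overlapped between all groups, and the TPM of Bbc3 spread more widely than its CPM (SD 5.12 around 18.4 TPM and 1.95 around 14.2 CPM in cultured cells).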
